A study of Mus musculus with 12 samples.

Results

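The 9 genes followed here were taken from a list of regulators of odorant receptor choice and of the nuclear organization that goes with it, and each was read from the probe set that carries its symbol and no other. All 9 were measured, each by 1 such probe set, among 19938 genes and 35556 probe sets on the array. They were the LIM homeodomain factor gene Lhx2, its cofactor gene Ldb1, the homeodomain factor gene Emx2, the Olf/EBF factor genes Ebf1, Ebf2, Ebf3 and Ebf4, the lamin B receptor gene Lbr and the heterochromatin protein 1 alpha gene Cbx5.

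Each olfactory sensory neuron transcribes a single odorant receptor (OR) gene, from one allele, out of a very large family. LHX2 and the EBF proteins bind the enhancers and promoters of OR genes, and LDB1, which LHX2 recruits, holds enhancers from different chromosomes together in a hub beside the active gene. The silent OR genes lie in heterochromatic foci that form in the nucleus once the lamin B receptor, which tethers heterochromatin to the nuclear envelope, has been lost from the differentiating neuron.

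The samples were closed or open sides of the main olfactory epithelium (MOE) of H2be-KO and wild type (WT) mice after unilateral naris occlusion (UNO), in which one nostril is sealed by cautery so that its side of the nasal cavity gets little airflow. The 12 arrays formed 4 groups of 3 samples: KO closed, KO open, WT closed and WT open. The H2be-KO allele, in which a Gap43-mCherry reporter replaces the coding sequence of this neuronal histone H2B variant, was carried in both KO groups, and all 4 groups came from occluded animals, so that the open side is not an untouched epithelium. The nostril was sealed at 2 weeks of age for 3 weeks. The titles and the figure legends for these arrays give an age of 5 weeks, whereas the age tag reads 6 months. By the deposited description each sample pooled tissue of 2 mice, a female and a male, whereas the figure legends for these arrays give another number of animals per sample. The comparisons ask whether the machinery of OR choice changes in level with loss of airflow, and whether H2be matters for it.

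Array medians lay between 7.21 and 7.30 on the log2 scale, and Pearson's r between arrays was 0.965 to 0.978 within groups and 0.964 to 0.978 between groups, so that no array stood apart. The H2be probe set read 11.41 to 11.46 in KO closed and 11.31 to 11.33 in KO open samples, against 11.68 to 11.75 in WT closed and 11.55 to 11.62 in WT open samples. All KO arrays were thus below all WT arrays, but the KO minus WT differences of -0.27 on the closed side and -0.26 on the open side did not pass the test across all probe sets (adjusted p = 0.999 and 0.641, limma), and whether this probe set lies within the deleted part is not given in the sources used here. All 12 markers of mature olfactory neurons were measured above the floor. Separate cultures or litters are not named by the labels, and p-values measure the spread between these pooled samples.

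The promoters of the regulators are shown first, since the proteins that several of them encode bind short DNA motifs. Windows of 250 bases before the transcription start, from RefSeq on GRCm38.p6, were found for 8 of the 9 genes, 13 windows in all, and not for Ebf2. They were searched on both strands for TAATTA, a homeodomain core, and CCCNNGGG, an Olf/EBF core, which are each their own reverse complement and do not overlap each other. TAATTA was in 0 of the 13 windows, against 4.85% of 32817 windows of all genes and 18.1% of 944 windows of OR genes. CCCNNGGG was in 2 of the 13 windows, against 11.8% of all windows and 2.75% of OR windows. A match is a description of these letters and not a binding site. The 2 stretches with the Olf/EBF core, in capitals, belong to 1 of 3 start sites of Ldb1 (chr19:46039641-46039688, minus strand) and to Ebf3 (chr7:137314446-137314486, minus strand), and the third line is the whole 250-base window of Ebf4 (chr2:130295689-130295938, plus strand), the regulator whose level differed most between the sides in KO and in the average over the genotypes, which holds neither motif.
Ldb1: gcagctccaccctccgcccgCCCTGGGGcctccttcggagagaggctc
Ebf3: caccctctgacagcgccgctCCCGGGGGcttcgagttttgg
Ebf4: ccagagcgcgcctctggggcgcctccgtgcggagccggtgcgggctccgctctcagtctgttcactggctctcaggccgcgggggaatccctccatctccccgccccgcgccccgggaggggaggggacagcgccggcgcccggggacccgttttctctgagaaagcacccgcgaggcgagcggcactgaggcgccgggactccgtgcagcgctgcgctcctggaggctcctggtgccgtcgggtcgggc
These windows are rich in G and C, at 68.4% for the Ldb1 window, 80.0% for Ebf3 and 75.2% for Ebf4.

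All 9 regulators were well expressed in every group. Their mean levels over the 12 arrays lay between the 82.6th and 97.3rd percentile of all probe sets, those without a symbol included. This is a rank of brightness and not of the amount of transcript. Within each gene the 12 values were close together, and of the 9 genes only Ebf4 had the 3 closed samples above the 3 open samples in both genotypes. Levels of different genes are not set against each other, because probe sets differ in how brightly they bind. In pooled tissue, fewer cells of a type and less RNA per cell cannot be told apart.

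None of the 9 regulators passed the threshold, an adjusted p under 0.05 over the 32615 probe sets with a mean log2 level above 5, in any of the 6 comparisons (limma). In KO mice 0 of 9 passed for closed against open, where 1.05% of all probe sets passed, and in WT mice 0 of 9, where 0.855% passed. Averaged over the genotypes 0 of 9 passed, against 2.9% of all probe sets. Between KO and WT 0 of 9 passed on the closed side, against 0.0245% of all, and 0 of 9 on the open side, against 0.0215%. The difference between the genotypes in the closed minus open change was called for 0 of 9 regulators and 0% of all probe sets. At these shares, a list of 9 genes would hold few calls in any case.

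At an unadjusted p under 0.05 the regulators stood near the array as a whole. There was 1 of 9 in KO (Ebf4), where 10.5% of all probe sets had such a p, 0 of 9 in WT (9.34%) and 1 of 9 in the average (Ebf4, 13.2%). Between KO and WT there were 0 of 9 on the closed side (4.26%) and 1 of 9 on the open side (Lbr, 6.67%), and 0 of 9 for the difference of the changes (4.01%). The median change of the 9, closed minus open, was -0.02 in KO, -0.04 in WT and -0.03 in the average, beside medians over all probe sets of 0.02, -0.01 and 0.00.

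**Figure D1:**
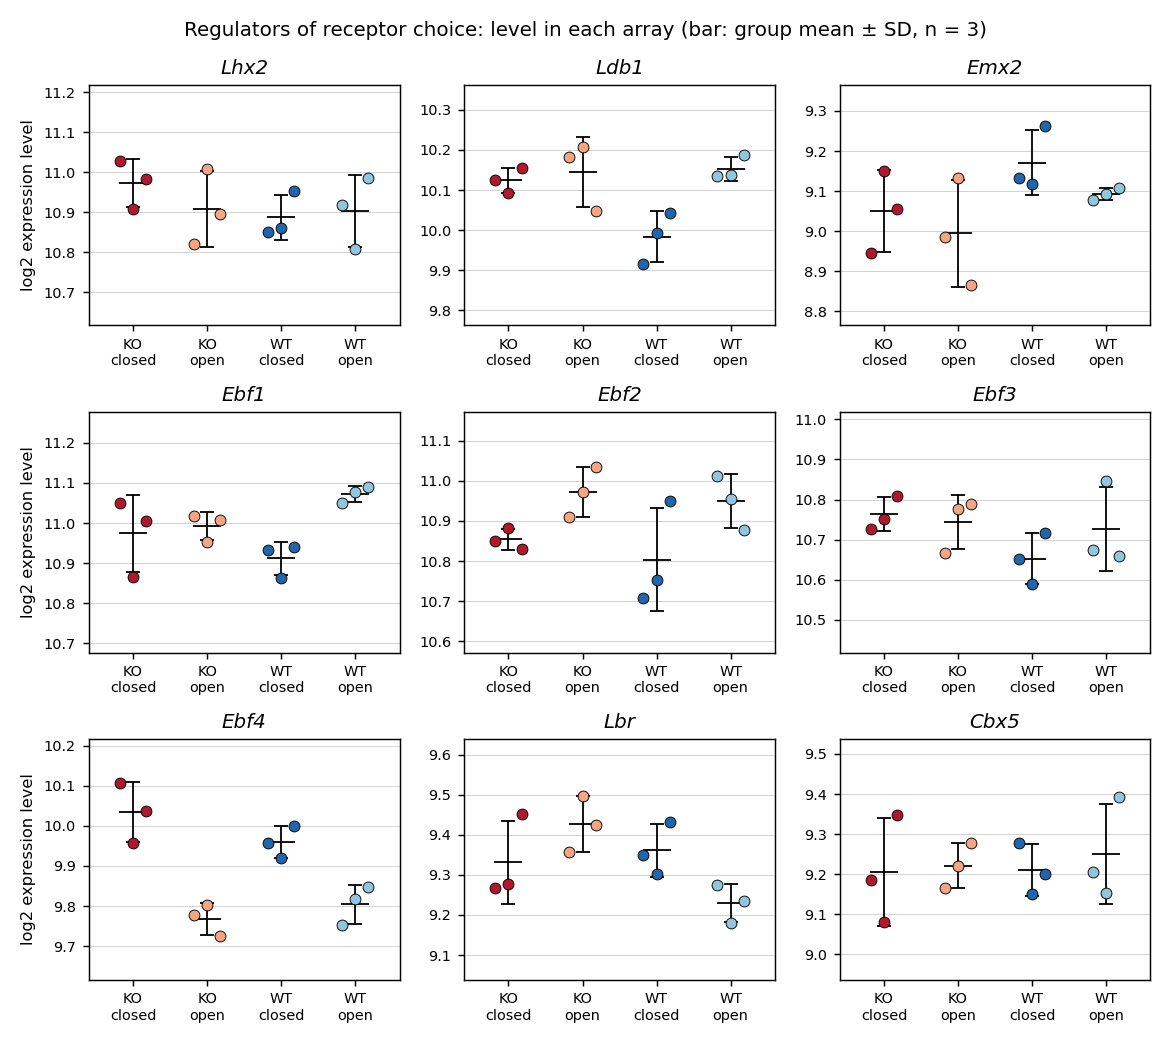
Log2 expression level (y axis, the same span in each panel) of the 9 regulators in each array, with the KO closed, KO open, WT closed and WT open groups on the x axis, and bars for the group mean ± SD (n = 3). Ebf4 is the gene whose closed samples (9.92 to 10.11) all lie above its open samples (9.72 to 9.85) in both genotypes.

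Lhx2 encodes the homeodomain factor at the centre of OR enhancer binding. Its gene lies at chr2:38339271-38369737. Its level was 11.03, 10.91 and 10.98 in KO closed and 10.82, 11.01 and 10.89 in KO open samples. In WT it was 10.85, 10.86 and 10.95 on the closed side and 10.92, 10.81 and 10.98 on the open side. The 4 groups overlapped throughout, and no neighbours in the order of their means (WT closed 10.89, WT open 10.90, KO open 10.91, KO closed 10.97) lay apart beyond their spread. The average change, closed minus open, was 0.02 ± 0.06 (SE, 95% interval -0.11 to 0.16, adjusted p = 0.927).

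Ldb1, the adaptor that joins LIM factors on different enhancers, lies at chr19:46031525-46048145. It read 10.12, 10.09 and 10.16 in KO closed against 10.18, 10.21 and 10.05 in KO open samples. In WT it read 9.92, 9.99 and 10.04 on the closed side against 10.13, 10.14 and 10.19 on the open side. WT closed was the lowest group, and its samples overlapped none of the other samples, while the other 3 group means (10.12 to 10.15) were within their spread. The closed minus open difference was -0.02 ± 0.08 in KO (SE, adjusted p = 0.969) and -0.17 ± 0.08 in WT (adjusted p = 0.553), and the difference between these 2 changes was 0.15 ± 0.11 (adjusted p = 1).

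Emx2 encodes a homeodomain factor needed in mice for the normal expression of many OR genes. It lies at chr19:59458690-59465357. Its level was 8.95, 9.15 and 9.06 in KO closed and 8.99, 9.13 and 8.87 in KO open samples. It was 9.13, 9.12 and 9.26 in WT closed and 9.08, 9.09 and 9.11 in WT open samples. The WT sides were just apart, by a gap smaller than the spread within the KO groups, and the KO samples ran over both. The average change was 0.07 ± 0.07 (SE, 95% interval -0.08 to 0.21, adjusted p = 0.762).

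The Olf/EBF factors are helix-loop-helix proteins that bind OR promoters and enhancers and many other genes of olfactory neurons. Ebf1 (chr11:44618100-45008096) is also a master regulator of B lymphocytes. It read 11.05, 10.87 and 11.01 in KO closed against 11.02, 10.95 and 11.01 in KO open samples. In WT it read 10.93, 10.86 and 10.94 on the closed side against 11.05, 11.08 and 11.09 on the open side. WT open samples were above all KO open and all WT closed samples, while both KO groups overlapped each other. The change was -0.02 ± 0.08 in KO (SE, adjusted p = 0.972) and -0.16 ± 0.08 in WT (adjusted p = 0.586). Of 6 markers of B cells 4 were above the floor, with a mean log2 level of 6.26 to 6.55 in WT closed and 5.95 to 6.37 in WT open samples. These ranges overlap, none of the 4 passed the test, and their part in the levels of Ebf1 was not tested.

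Ebf2 (chr14:67233292-67430952) had a lower mean on the closed side in both genotypes. It read 10.85, 10.88 and 10.83 in KO closed against 10.91, 10.97 and 11.03 in KO open samples, without overlap. In WT it read 10.71, 10.75 and 10.95 on the closed side against 11.01, 10.96 and 10.88 on the open side, where 1 closed sample fell among the open ones. The average change was -0.13 ± 0.06 (SE, 95% interval -0.27 to 0.004, adjusted p = 0.399).

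Ebf3 (chr7:137193671-137322805) read 10.73, 10.75 and 10.81 in KO closed, 10.67, 10.78 and 10.79 in KO open, 10.65, 10.59 and 10.72 in WT closed, and 10.67, 10.85 and 10.66 in WT open samples. KO closed samples were above WT closed samples, and no neighbours in the order of the group means were apart. The average change was -0.03 ± 0.06 (SE, adjusted p = 0.916).

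Ebf4 (chr2:130295126-130370482) had the largest change of the 9 in KO and in the average. It read 10.11, 9.96 and 10.04 in KO closed against 9.78, 9.80 and 9.72 in KO open samples. In WT it read 9.96, 9.92 and 10.00 on the closed side against 9.75, 9.82 and 9.85 on the open side. The 6 closed samples lay above the 6 open samples, with the KO and WT samples of a side overlapping. The closed minus open difference was 0.27 ± 0.08 in KO (SE, 1.20-fold, 95% interval 0.09 to 0.44, adjusted p = 0.196) and 0.15 ± 0.08 in WT (SE, 1.11-fold, 95% interval -0.02 to 0.33, adjusted p = 0.602). In the average it was 0.21 ± 0.06 (SE, 1.16-fold, 95% interval 0.09 to 0.33), with an adjusted p of 0.0746 that misses the threshold. The adjusted p ran between 0.0114 and 0.172 over the 19 other settings tried and was under 0.05 in 2 of them, with a floor at log2 7 (0.0295) and with a variance trend and robust moderation (0.0114). The size of the change was 0.19 to 0.23 in all 19. The change in KO exceeded that in WT by 0.11 ± 0.11 (SE, adjusted p = 1), so that a difference between the genotypes was not shown.

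Other genes moved with the same split of the arrays. Markers of mature olfactory neurons had a mean log2 level of 11.46 to 11.49 in KO closed and 11.19 to 11.29 in KO open samples, and of 11.39 to 11.49 in WT closed and 11.21 to 11.24 in WT open samples. Markers of immature neurons ran the other way, at 9.89 to 9.93 in KO closed and 10.02 to 10.09 in KO open samples, and at 9.86 to 9.95 in WT closed and 10.02 to 10.08 in WT open samples. Their part in the difference in Ebf4 was not tested.

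Groups whose samples did not overlap were also counted. In KO the closed and open samples were apart for 2 of 9 regulators (Ebf2 and Ebf4), where 17.3% of all probe sets were. In WT they were apart for 5 of 9 (Ldb1, Emx2, Ebf1, Ebf4 and Lbr), where 13.2% were, a larger share than over the whole array, with 2 of the 5 lower and 3 higher on the closed side and with no adjusted p under 0.553. The SE of the regulators in WT was 0.08 to 0.10, below the median of 0.13 over all probe sets. The share over probe sets of like spread was not taken. KO and WT were apart for 2 of 9 on the closed side (Ldb1 and Ebf3, both higher in KO), where 8.82% of all probe sets were, and for 2 of 9 on the open side (Ebf1, lower in KO, and Lbr, higher in KO), where 12.4% were.

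Lbr (chr1:181815315-181842401) encodes the inner nuclear membrane protein whose loss precedes the gathering of OR genes into foci in mouse olfactory neurons. It read 9.27, 9.28 and 9.45 in KO closed against 9.36, 9.50 and 9.43 in KO open samples. In WT it read 9.35, 9.30 and 9.43 on the closed side against 9.27, 9.18 and 9.23 on the open side. WT open was thus the lowest group and KO open the highest, with no overlap between them, and the closed groups lay between. The KO minus WT difference on the open side was 0.20 ± 0.09 (SE, 1.15-fold, adjusted p = 0.721). The closed minus open change was -0.09 ± 0.09 in KO and 0.13 ± 0.09 in WT, and their difference of -0.23 ± 0.12 did not pass (SE, adjusted p = 1).

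Cbx5 (chr15:103191546-103239904) encodes a protein that binds methylated histone H3 in heterochromatin. It read 9.19, 9.08 and 9.35 in KO closed, 9.17, 9.22 and 9.28 in KO open, 9.28, 9.15 and 9.20 in WT closed, and 9.20, 9.15 and 9.39 in WT open samples. All 4 groups overlapped, and their means lay between 9.20 and 9.25. The average change was -0.03 ± 0.07 (SE, 95% interval -0.18 to 0.12, adjusted p = 0.926).

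**Figure D2:**
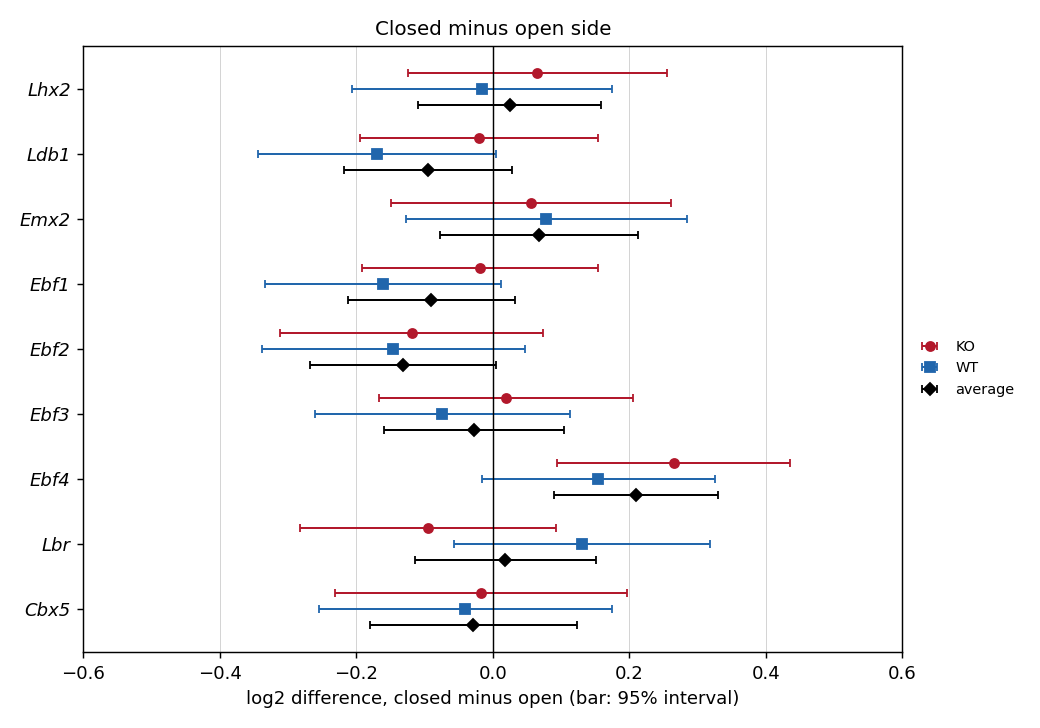
Closed minus open difference of each regulator on the log2 scale (x axis), with points for KO, WT and the average of both and bars for 95% intervals. The average interval lies wholly above 0 for Ebf4 (0.09 to 0.33) and holds 0 for the other 8 genes.

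**Figure D3:**
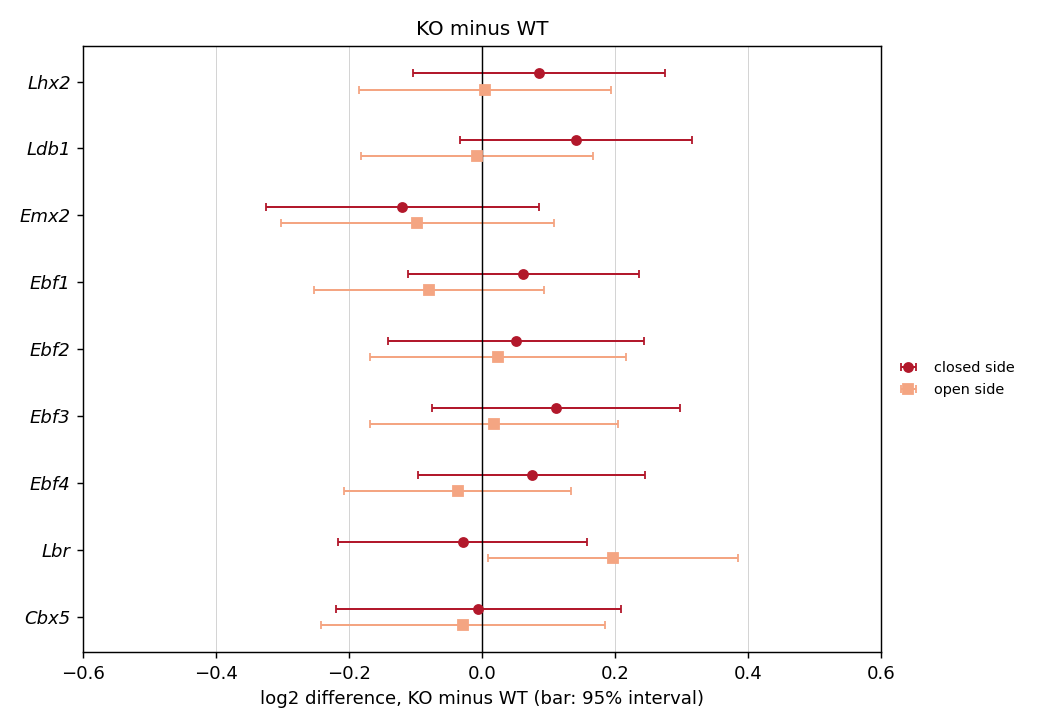
KO minus WT difference of each regulator on the log2 scale (x axis), on the closed and the open side, with bars for 95% intervals. Lbr on the open side (0.01 to 0.38) is the only interval that leaves out 0.

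The intervals limit how far the relative levels of the regulators in pooled tissue can have moved, and not their levels per cell. For all 9 genes the closed minus open intervals allowed at most 1.26-fold in the average, 1.35-fold in KO and 1.27-fold in WT. Ebf4 had the largest average change in these same data. For the other 8 genes the average closed minus open change had 95% intervals that stayed within -0.27 and 0.21, which is at most 1.20-fold. Within one genotype the limit for these 8 was 1.24-fold in KO and 1.27-fold in WT. Between KO and WT the intervals of all 9 allowed at most 1.25-fold on the closed side and 1.31-fold on the open side, and for the difference between the genotypes in the change at most 1.41-fold. These are intervals for each gene alone, and the precision is limited by 3 arrays a group.

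The other genes around these regulators were followed in 5 lists. Of 24 other transcription factors of the olfactory neuron lineage 21 were above the floor, and in the average comparison 5 fell on the closed side and 0 rose, where 2.9% of all probe sets passed in either direction. Nhlh2, a helix-loop-helix factor of immature neurons, averaged 7.74 in KO closed and 8.21 in KO open samples, and 7.85 in WT closed and 8.19 in WT open samples. Its average change was -0.41 ± 0.07 (SE, adjusted p = 0.00564). The others that fell were Insm1, a zinc finger factor of dividing neuronal progenitors (-0.30, adjusted p = 0.0105), Nhlh1, the close relative of Nhlh2 (-0.35, adjusted p = 0.0311), Sox11, a factor of young neurons (-0.26, adjusted p = 0.0317), and Neurod1, a factor of late progenitors (-0.27, adjusted p = 0.0429). Nhlh2 also fell within KO (-0.47, adjusted p = 0.0387), where 1.05% of all probe sets passed. Within WT 0 of the 21 passed, against 0.855% of all probe sets.

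Nhlh2 and Insm1 passed in the average under all 19 other settings. Nhlh1 lost the call when any of 10 of the 12 arrays was left out, Sox11 and Neurod1 when any of 11 was, and over all settings their adjusted p-values reached 0.0825, 0.085 and 0.125. With the replicate number as a block, the adjusted p was 0.0597 for Nhlh1, 0.0769 for Sox11 and 0.116 for Neurod1. The call of Nhlh2 within KO was lost when any of 10 arrays was left out (adjusted p over all settings of up to 0.174) and with the block (adjusted p = 0.108). The median of the 21 in the average comparison was -0.07, beside -0.03 for the 9 regulators of choice.

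The list of LIM cofactors and interaction partners and the list of heterochromatin and silencing factors gave no call. At most 2.9% of all probe sets passed in any comparison, so that short lists would hold few calls in any case. Of the 11 LIM cofactors and interaction partners, all above the floor, 0 passed in any of the 6 comparisons, with 3 of 11 at an unadjusted p under 0.05 in the average, where 13.2% of all probe sets had such a p, and a median average change of -0.03. The nearest was Ssbp2, a single-stranded DNA binding protein that stabilizes LDB proteins, at -0.24 ± 0.06 (SE, adjusted p = 0.0665). Of the 20 heterochromatin and silencing factors 18 were above the floor and 0 passed in any comparison, with 5 of 18 at an unadjusted p under 0.05 in the average, beside the same 13.2%, and a median of -0.09. Hells, a chromatin remodeller of dividing cells, was the nearest at -0.32 ± 0.09 (SE, adjusted p = 0.087). Kdm1a, the lysine demethylase that is active while an OR gene is chosen, stood at -0.15 (adjusted p = 0.369), and Rcor1, its corepressor partner, at -0.16 (adjusted p = 0.212).

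In the list of 17 nuclear envelope and lamina genes 16 were above the floor. In the average 15 did not pass and 1 rose, where 2.9% of all probe sets passed. This was Sun1, an inner nuclear membrane protein that links the lamina to the cytoskeleton, which averaged 10.04 in KO closed and 9.73 in KO open samples, and 10.01 in WT closed and 9.72 in WT open samples. Its average change was 0.30 ± 0.06 (SE, adjusted p = 0.0258), and the call was lost when any of 10 arrays was left out (adjusted p over all settings of up to 0.0731) and with the replicate block (adjusted p = 0.0633). Of 14 genome folding factors 13 were above the floor and 0 passed in any comparison, where at most 2.9% of all probe sets passed. In the average 0 of the 13 had an unadjusted p under 0.05, against 13.2% of all probe sets, with changes of -0.10 to 0.12. Between KO and WT 0 genes of the 5 lists passed on either side, where 0.0245% of all probe sets passed on the closed and 0.0215% on the open side.

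**Figure D4:**
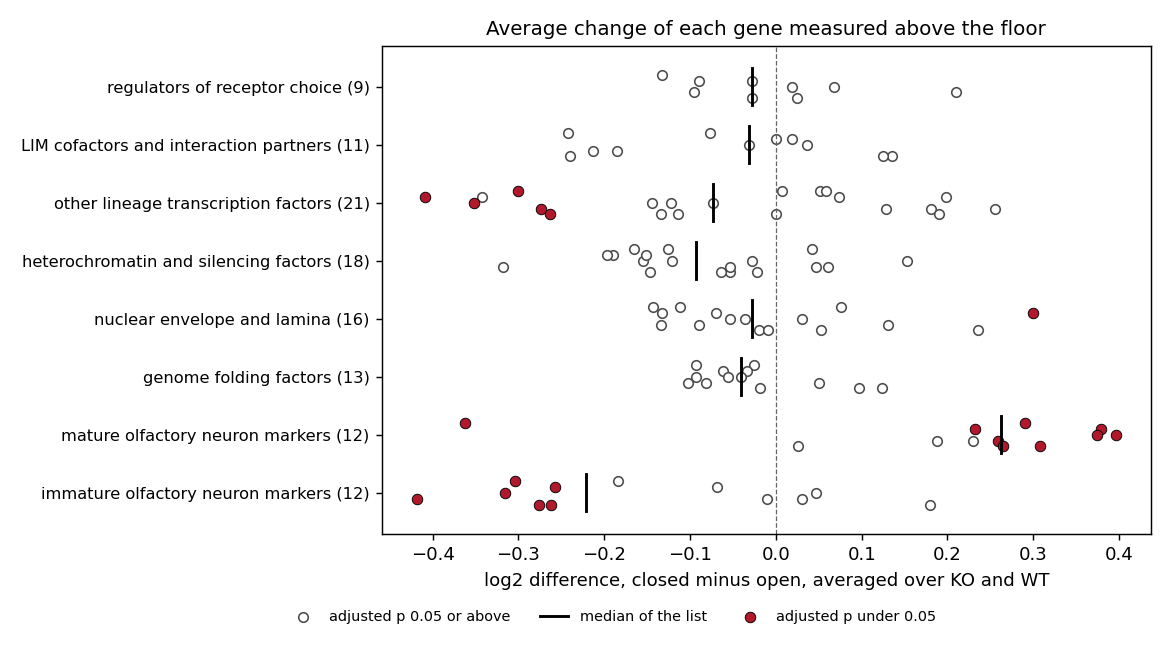
Closed minus open difference averaged over KO and WT, on the log2 scale (x axis), for each gene above the floor in 8 lists (rows, with the number of genes), filled where the adjusted p was under 0.05 and with a line for the list's median. The regulators of choice hold 0 filled points, the other lineage factors hold 5 on the low side and the nuclear envelope list 1 on the high side.

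Markers of the neuron's stages moved in the same average comparison, where 2.9% of all probe sets passed. Of 12 markers of mature olfactory neurons 8 rose on the closed side in the average, led by the channel genes Cnga4 (0.40 ± 0.05, SE, adjusted p = 0.00174), Cngb1 (0.38 ± 0.06, adjusted p = 0.00271) and Ano2 (0.37 ± 0.06, adjusted p = 0.00316). Slc17a6, the vesicular glutamate transporter of these neurons, fell (-0.36 ± 0.06, adjusted p = 0.00389). Omp (0.03, adjusted p = 0.91), Gng13 (0.23, adjusted p = 0.126) and Ric8b (0.19, adjusted p = 0.147) did not pass (limma). Of 12 markers of immature neurons 6 fell and 0 rose, led by the G protein subunit gene Gng8 (-0.42 ± 0.06, adjusted p = 0.0027). Of these 15 calls, Cnga4, Cngb1, Ano2, Adcy3, Slc17a6 and Gng8 passed under all 19 other settings, and the other 9 were lost with at least 1 array left out (adjusted p over all settings of up to 0.104). The median change was 0.26 for the mature and -0.22 for the immature list. The markers of 12 other cell types had 0 calls in every comparison, sustentacular cells and globose basal cells among them (8 and 11 genes above the floor). As at most 2.9% of all probe sets passed in any comparison, such short lists would hold few calls in any case. The other 6 immature markers did not pass, and 3 of them had changes above 0 (Crmp1 0.03, Dcx 0.05 and Nrn1 0.18). The relation of these changes to the shares of cells in the pooled samples was not tested.

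The genes whose levels ran most like a regulator's over the 12 arrays were sought among 19389 genes, as a description with no test, and all genes share the arrays and the normalization. The closest match of all was to Ebf4: Bcl11a, a zinc finger factor gene that is itself on the lineage list, with Pearson's r = 0.98 and Spearman's rho = 0.95, and r = 0.97 without the 2 arrays farthest from the median of Ebf4. Msi1, an RNA-binding protein gene, and Cks2, a gene for a subunit of cyclin-dependent kinases, followed at r = 0.97 each. These 3 shared the split between the sides, which follows from their being picked for likeness to Ebf4 over the same arrays. Their own average changes, which for that reason say nothing further about Ebf4, were 0.18 ± 0.06 (SE) for Bcl11a, 0.38 ± 0.06 for Msi1 and 0.26 ± 0.05 for Cks2.

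Matches to the other regulators were looser. The nearest gene was Atp6ap2 for Ebf2 (r = 0.93), Ube2ql1 for Ebf1 (r = 0.93), Mrpl50 for Lbr (r = 0.92), Gcnt1 for Cbx5 (r = 0.90), Ptpdc1 for Ldb1 (r = 0.88), Impa1 for Lhx2 (r = 0.86), Acad12 for Ebf3 (r = 0.85) and Tas2r115 for Emx2 (r = 0.85). Without the 2 arrays farthest from the regulator's median, r with the nearest gene was 0.49 for Emx2, 0.65 for Ebf3 and 0.69 for Ldb1. For the others named here it was then 0.77 to 0.86. Tas2r115 also lay near the floor, with group means of 5.33 to 5.70. Among the regulators themselves r ran between -0.62, for Ebf2 with Ebf4, and 0.57, for Ldb1 with Ebf1.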

How the data were processed

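Total RNA of the 12 samples was labelled with biotin and measured on Affymetrix whole-transcript mouse arrays (Mouse Gene 1.0 ST). The deposited values are log2 expression levels per probe set, which the authors made with Affymetrix Expression Console (IterPLIER summarization and sketch-quantile normalization) after a check for outlier arrays. Such normalization sets the arrays to a common distribution, so that differences are relative to the rest of the array. The genome build of the array design is not given in the sources used here. Probe sets were named through the platform annotation, updated by Entrez ID to RefSeq (GRCm38.p6): 21789 have 1 symbol, 1621 several and 12146 none. Sequences and coordinates are from RefSeq on that build.

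A mean was fitted for each of the 4 groups (limma 3.58.1, R 4.3.3, lmFit and eBayes, two-sided), with Benjamini-Hochberg adjustment over the 32615 probe sets with a mean log2 above 5 and a threshold of 0.05. The authors' methods adjusted over OR genes for the occlusion arrays, and the adjustment here is over all probe sets. The 95% interval of a difference between 2 groups reached a median of 0.29 to either side. Signals of single probes were not analysed here. Figures were drawn with matplotlib. The fit was tested on simulated data for the average comparison only, so that the other comparisons were not covered. The genes named are all 9 regulators, the 3 genes most like Ebf4 and the gene most like each of the other regulators. Up to 4 passing genes of each list with the smallest adjusted p are also named. The nearest to passing and further passing genes were chosen after their values were seen. The regulators and lists were chosen with earlier results of these data known. Alternatives were other floors, a variance trend, array weights, other scalings, each contrast's groups alone, the replicate number as a block, and each array left out.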

Additional observations from a re-analysis of the deposited data

How the results depend on the processing

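The count of regulators called was 0 of 9 in each comparison under every alternative but 2, both in the average comparison, where 1 (Ebf4) was called with a floor at log2 7 and 1 (Ebf4) with a variance trend and robust moderation. Of the alternative values of single regulators, 1007 kept their direction and side of the threshold, 2 gained the call (those of Ebf4) and 53 changed sign. All sign changes were of differences under 0.06 that had no call, and the cause was not tested. With array weights these were Cbx5 in KO (0.022), Lbr and Cbx5 between genotypes on the closed side (0.005 and 0.025), and Lhx2 and Ldb1 on the open side (-0.025 and 0.008). With median centring they were Ebf3 in KO (-0.0073), Lhx2 in WT (0.0007), Cbx5 on the closed side (0.0022), Ldb1, Ebf4 and Cbx5 on the open side (0.044, 0.014 and 0.022), and Ebf2 and Cbx5 in the genotype difference (-0.016 and -0.020). Quantile normalization gave Lhx2 in WT as 0.01.

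With each array left out in turn, closed minus open in KO ran between -0.088 and 0.045 for Cbx5, -0.019 and 0.041 for Ebf3, -0.07 and 0.011 for Ldb1, -0.0081 and 0.12 for Emx2, and -0.057 and 0.036 for Ebf1. In WT it ran between -0.063 and 0.025 for Lhx2 and -0.088 and 0.031 for Cbx5. In the average it ran between -0.064 and 0.0072 for Cbx5, -0.012 and 0.036 for Lbr, and -0.047 and 0.0029 for Ebf3. KO minus WT ran on the closed side between -0.089 and 0.0064 for Lbr and -0.077 and 0.056 for Cbx5. On the open side it ran between -0.046 and 0.048 for Lhx2, -0.039 and 0.042 for Ldb1, -0.077 and 0.042 for Cbx5, -0.012 and 0.055 for Ebf2, and -0.016 and 0.078 for Ebf3. The genotype difference ran between -0.02 and 0.10 for Ebf2, -0.048 and 0.085 for Cbx5, and -0.087 and 0.046 for Emx2.

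Counts over all probe sets moved more than those of the regulators. In KO, 341 probe sets were called, against 114 with only the groups of the contrast, 544 with array weights, 588 with the variance trend and 128 to 310 with each array left out (128 without KO open replicate 1). In WT, 279 were called, against 35 with only the groups of the contrast, 487 with the floor at log2 7, 523 with the variance trend and 93 to 223 with each array left out (93 without WT open replicate 3). In the average, 945 were called, against 1241 with the floor at log2 7, 1338 with the variance trend and 647 with the replicate block. With each array left out it was 590 to 819 (590 without KO open replicate 1). On the closed side 8 differed between KO and WT, against 3 with only its groups, and on the open side 7, against 4 with only its groups and 12 with the variance trend.

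The labels number replicates 1 to 3 in each group. Closed and open samples of one number had deviations with r of 0.03 to 0.23 in KO and -0.01 to 0.17 in WT, and not every sample was most like its own number. The labels do not say whether such samples are sides of the same mice, and they were not treated as pairs. With the replicate number as a block, 0 of 9 regulators were called in each comparison, the Ebf4 average had an adjusted p of 0.14, and 116 probe sets were called in KO and 97 in WT. The block also ended 12 of the 21 calls in the regulator and neuron marker lists in the average, all 4 in KO and both in WT. As each regulator has 1 probe set, averaging several could not be run. The settings were also applied to the passing genes of the lists, a choice made after seeing the data. The precision is limited by 3 arrays a group.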
